A study of Mus musculus with 8 samples.

Results

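The TRAV16 family is a set of near-identical V gene segments of the mouse T cell receptor (TCR) alpha chain, and 3 of its genes were called in these data: TRAV16, TRAV16N and TRAV16D-DV11. A cell was counted as a family cell if its TCRα (TRA) chain had a V call to 1 of these genes, with any trailing suffix of the call ignored, and if its barcode carried no multiplet mark. This gave 3740 family cells of 107882 barcodes with a TRA chain, namely 1736 for TRAV16N (written TRAV16N_1 in the tables), 1406 for TRAV16 and 598 for TRAV16D-DV11.

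The study sequenced paired TRA and TCRβ (TRB) chains of CD8+ T cells from single-cell suspensions to ask whether clonotypes of the thymus recur in the periphery of that animal. The deposited data comprised 14 tables from 7 mice, each with a thymus table and a second one, which was from the spleen in mouse-155A and mouse-155C and from the tumor in the other 5 mice. Per the study's methods, animals were on a C57BL/6 background and carried loxP-flanked Pdcd1 alleles. They were either Pdcd1fl/fl controls or Pdcd1 cKO mice, in which Cre driven by E8I CD8-Cre removes Pdcd1 in CD8+ cells. Tumors were B16-OVA or B16-F10 melanomas grown under the skin. The labels give neither the genotype, the tumor model nor the age of any single mouse, and for the spleen they name both a CD8+ and a naive CD8+ isolation kit, so no table was assigned to a genotype or a tumor and no group was formed. Each value below describes 1 table unless it is given over several tables or mice. Distinct chains over several tables are counted anew in each table, so a chain found in several tables counts several times. An interval covers counting error alone. Over several tables it treats chains or clonotypes of different mice, and repeats of a chain, as independent draws, which they are not.

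In developing T cells, V(D)J recombination joins 1 V segment to 1 J segment to make the alpha chain, and the join forms the third complementarity-determining region (CDR3), the loop that contacts peptide. The alpha locus keeps rearranging on the same chromosome until the cell is selected or dies, each round using a V segment farther upstream and a J segment farther downstream. In C57BL/6 mice a block of the V region is present in several copies, marked D and N in the gene names, which is why the TRAV16 gene exists as TRAV16D-DV11, TRAV16N and TRAV16. The suffix DV11 marks a segment that can also be joined in the TCR delta chain.

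The 3 segments lay on the plus strand of chromosome 14 in GRCm39, the build named in the submitters' processing notes. Their V exons were 301 bases each and differed at 3 bases between TRAV16N and TRAV16D-DV11, at 4 between TRAV16N and TRAV16, and at 5 between TRAV16D-DV11 and TRAV16, an identity of 98.3% to 99.0%. The assembled chains did not cover the whole exon. They began at the same base in 98.2% to 98.5% of annotated chains and read only the last 73 bases of the coding exon, so each call rested on that window. The windows are shown because 2 bases in them, given in capitals at positions 23 and 44 counted from the 5′ end, separate the genes.
TRAV16D-DV11, chr14:53285206-53285278: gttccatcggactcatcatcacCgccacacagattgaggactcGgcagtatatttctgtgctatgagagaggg
TRAV16N, chr14:53589006-53589078: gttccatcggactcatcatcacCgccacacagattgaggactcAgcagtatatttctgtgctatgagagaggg
TRAV16, chr14:53981090-53981162: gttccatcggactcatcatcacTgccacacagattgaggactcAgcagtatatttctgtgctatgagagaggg

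With the first-named gene as the reference, TRAV16N and TRAV16D-DV11 differed by A44G, TRAV16N and TRAV16 by C23T, and TRAV16D-DV11 and TRAV16 by C23T and G44A. All 447 annotated TRAV16D-DV11 chains, 1411 of 1411 TRAV16N chains and 1126 of 1126 TRAV16 chains that were read at both positions carried the bases of the gene they were called as. These bases are also what the call itself could have used, so the match describes the calls and is no independent check of them. TRAV16N differs from each sister gene at only 1 base of the window. Among 2338 distinct family clonotypes, 1 had cells with more than 1 family gene call. The annotation tables covered 2985 of the 3740 family cells (79.8%), since those of mouse-160B thymus, mouse-164B thymus and mouse-164C tumor were held here only in part.

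The family's share of the TRA repertoire lay in a narrower range in the thymus than outside it. Over the 7 thymus tables, the lowest share was 2.66% (exact 95% interval 2.06 to 3.36) in mouse-155C, the median 3.56% and the highest 4.04% (3.68 to 4.43) in mouse-164B. In the spleen it was 4.36% (3.86 to 4.91) in mouse-155A and 3.15% (2.56 to 3.84) in mouse-155C. Both spleens were thus near the thymus range. The 5 tumor tables ran from 1.07% (0.845 to 1.35) in mouse-160C over 1.95% (mouse-164B), 3.13% (mouse-164C) and 3.90% (mouse-160B) to 10.8% (9.67 to 12.01) in mouse-160A. The mouse-160A tumor stood far above the other 13 tables, and the values of the mouse-160C and mouse-164B tumors lay below every thymus value. The interval of the mouse-164B tumor (1.69 to 2.25) overlapped that of mouse-155C thymus.

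**Figure D1:**
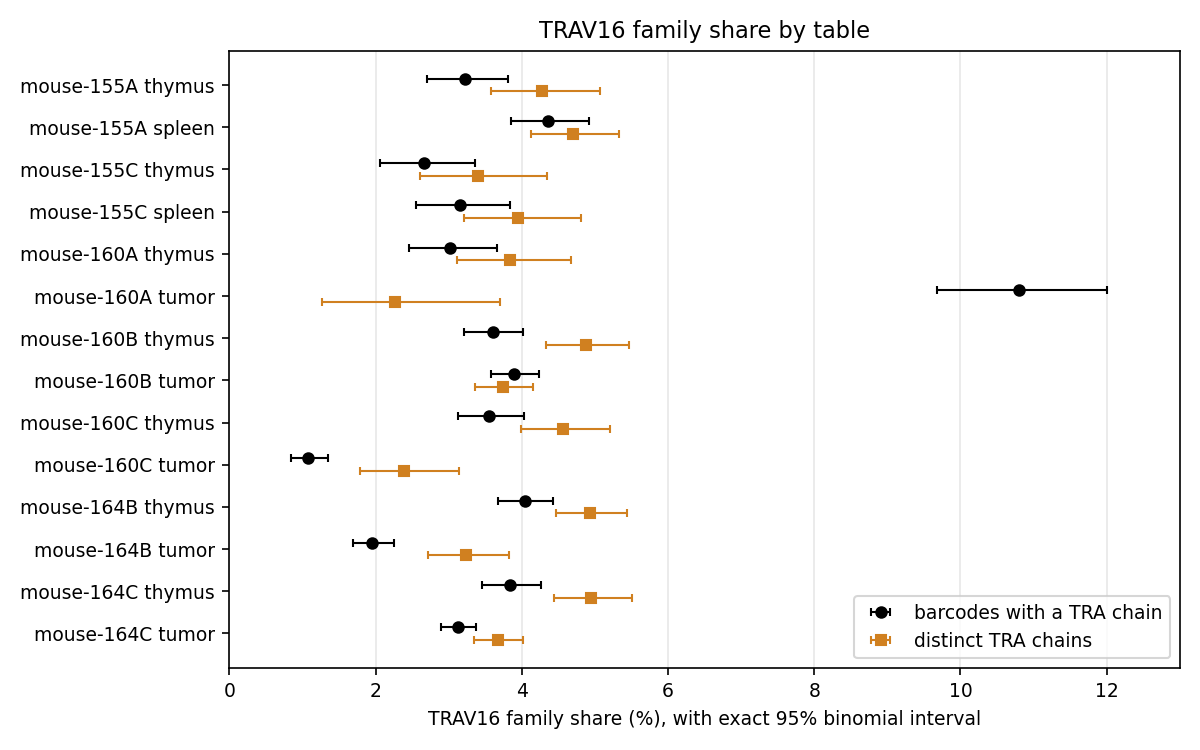
TRAV16 family share (x axis, %) in each of the 14 tables (y axis), among barcodes with a TRA chain (circles) and among distinct TRA chains (squares), with exact 95% binomial intervals as bars. The mouse-160A tumor is at 10.8% of barcodes and at 2.26% of distinct chains, and in all 5 tumors the square is to the left of that of the same mouse's thymus.

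Set against the thymus of the same mouse, the share of barcodes was higher in the second tissue in 4 of 7 mice and lower in 3, with intervals that did not overlap in 5. Counting barcodes weights a chain by the number of its cells. When each distinct TRA chain of a table (V gene, J gene and CDR3 amino acid sequence) was counted a single time, the direction in mouse-160A and mouse-160B turned. The share was then higher in both spleens, at 4.70% against 4.27% in the thymus of mouse-155A and at 3.95% against 3.40% in that of mouse-155C, where the intervals overlapped. It was lower in all 5 tumors than in the matching thymus: 2.26% against 3.83% (mouse-160A), 3.74% against 4.88% (mouse-160B), 2.39% against 4.57% (mouse-160C), 3.24% against 4.94% (mouse-164B) and 3.68% against 4.95% (mouse-164C). The intervals of thymus and tumor were apart in 4 of these mice and overlapped in mouse-160A, whose tumor held only 15 distinct family chains.

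Family chains rested on fewer transcripts than other TRA chains. The share of family cells with only 1 TRA transcript ran from 65.4% to 77.8% over the thymus tables, against 48.1% to 71.9% for other TRA cells, and it was higher than that of other cells in every table but the mouse-160A tumor, at 38.6% against 45.9%. With at least 2 TRA transcripts required, the thymus median fell to 2.37% and the number of mice with a higher share in the second tissue to 2. These were mouse-160A and mouse-160B. Both spleens then lay below their thymus, at 1.92% against 2.37% in mouse-155A and 1.80% against 2.13% in mouse-155C. A TRB chain was found alongside the family chain in 54.1% to 83.8% of family cells, against 45.3% to 69.3% of other TRA cells, and the family's share was the higher one in every table but the mouse-160C tumor.

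TRAV16N and TRAV16 contributed most family cells and TRAV16D-DV11 the fewest. Over the thymus tables, TRAV16N made up from 36.1% to 51.5% of family cells with a median of 43.4%, TRAV16 from 36.7% to 46.3% with a median of 39.0%, and TRAV16D-DV11 from 11.8% to 20.9% with a median of 16.6%. The ranges of TRAV16N and TRAV16 overlapped, and that of TRAV16D-DV11 lay below both. In the spleens TRAV16 led, at 49.6% (43.4 to 55.9) in mouse-155A and 50.5% (40.1 to 60.9) in mouse-155C, with intervals that overlapped those of the same mouse's thymus. TRAV16N followed at 38.0% and 36.8%.

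The tumors differed from each other in the gene that led. TRAV16N made up 95.4% of the 303 family cells of mouse-160A, and between 36.5% (mouse-160C) and 48.1% (mouse-164B) in the other 4. TRAV16D-DV11 made up 0.330% of family cells in mouse-160A, against 17.6% to 21.9% in the other 4 tumors. TRAV16 ran from 4.29% in mouse-160A and 29.9% in mouse-164B to 44.2% in mouse-160B. Over distinct chains these differences narrowed, and the 3 genes made up 16.5% (TRAV16D-DV11), 42.4% (TRAV16N) and 41.1% (TRAV16) of the 2811 distinct family chains. In the mouse-160A tumor, TRAV16N and TRAV16 then had 7 distinct chains each and TRAV16D-DV11 had 1.

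**Figure D2:**
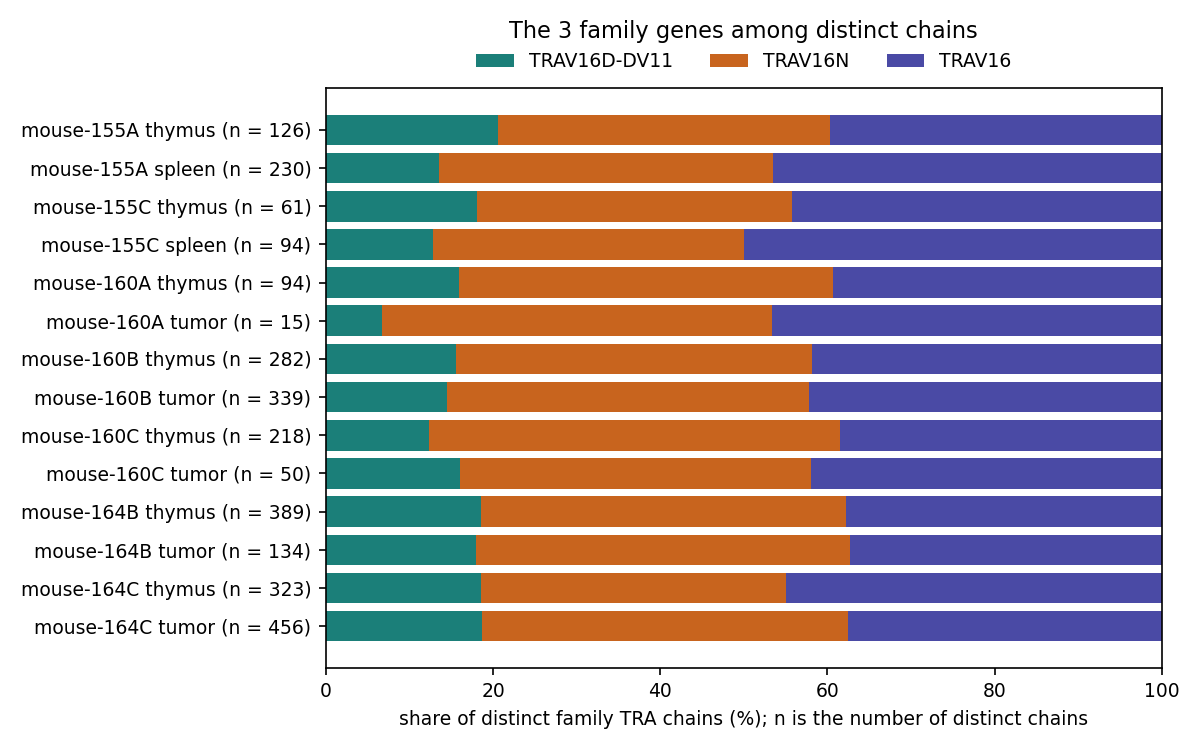
Share of each family gene among the distinct family TRA chains (x axis, %) of each table (y axis), with the number of distinct chains beside the table's name. TRAV16D-DV11 is the smallest segment in all 14 tables, between 6.67% and 20.6%.

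The share of the family over the 14 tables was most like that of TRAV8-1, with a Spearman correlation of 0.66 among 43 other TRAV genes of median share 0.5% or more. TRAV6-6 followed at 0.58 and TRAV4D-4 at 0.56. Tables of 1 mouse share an animal and all tables share the libraries, and a large clone in a single table moves these values. Over distinct chains the correlation of TRAV8-1 with the family was -0.49 and that of TRAV6-6 was -0.35, so their likeness did not hold without clone size, while TRAV4D-4 stood at 0.36.

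The 3 genes joined different parts of the J cluster. TRAV16D-DV11 lay 1108 kb upstream of the first TRAJ gene, TRAV16N 805 kb and TRAV16 412 kb. TRAJ genes were ranked by position, so that rank 1 is the one nearest to the V genes and rank 45 the most distant of those called. The median rank over distinct chains was 10 (TRAJ47) for TRAV16, 29 (TRAJ24) for TRAV16N and 31 (TRAJ22) for TRAV16D-DV11, against 26 for all other TRA chains. The gene nearest to the J cluster joined the nearest J genes.

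This order held in each table with enough chains. In the 12 tables with at least 10 distinct chains of each gene, the median rank rose from TRAV16 to TRAV16N to TRAV16D-DV11 in 12. It lay between 9 and 13 for TRAV16, between 24 and 31 for TRAV16N and between 30 and 36.5 for TRAV16D-DV11. The first range did not meet the others, while those of TRAV16N and TRAV16D-DV11 overlapped. TRAV16 had a lower median rank than TRAV16N in 14 of 14 tables. Since the position of a gene was not used to choose the family, this is a separate readout from the shares above, although chains of 1 mouse in 2 tissues are not independent animals.

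**Figure D3:**
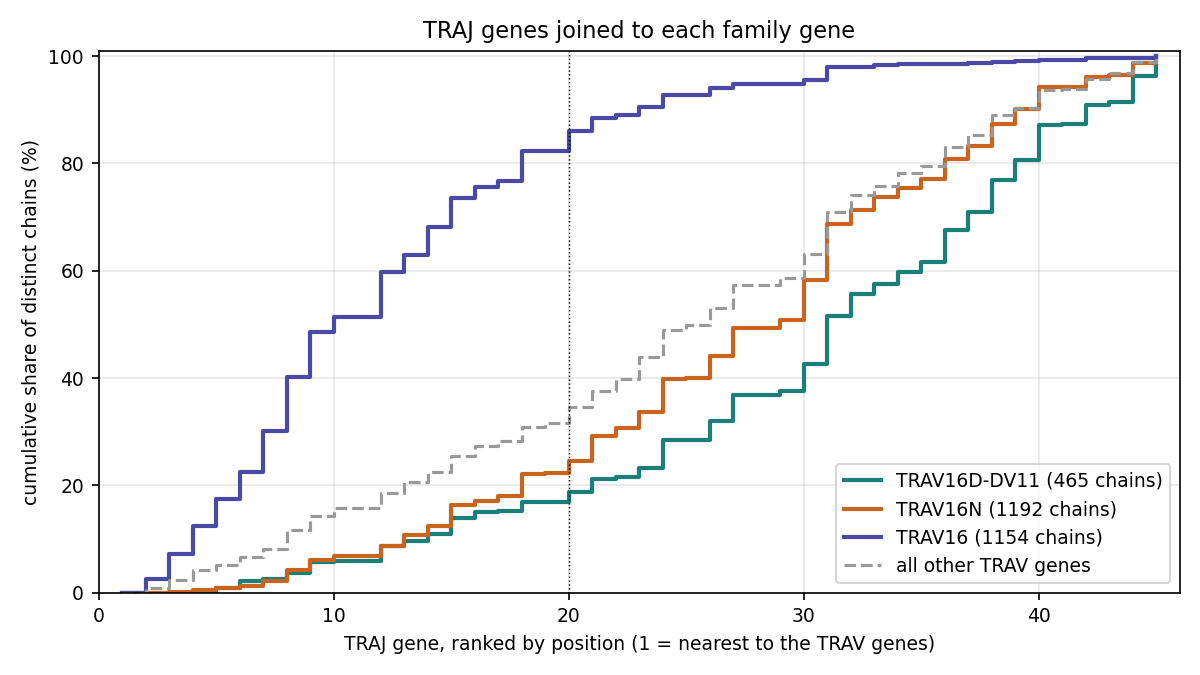
Cumulative share of distinct chains (y axis, %) over TRAJ genes ranked by position (x axis, 1 is nearest to the V genes) for each family gene and for all other TRAV genes together (dashed); the dotted line marks rank 20. At that line TRAV16 has reached 86.0%, TRAV16N 24.5%, TRAV16D-DV11 18.7% and the other genes 34.7%.

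Pooled over the 14 tables, with a chain counted anew in each table, the first 20 TRAJ genes took 86.0% (83.9 to 88.0) of the 1154 distinct TRAV16 chains. They took 24.5% (22.1 to 27.04) of the 1192 TRAV16N chains and 18.7% (15.3 to 22.6) of the 465 TRAV16D-DV11 chains. Over the same 12 tables, the share for TRAV16 lay between 77.8% and 91.9%, that for TRAV16N between 13.04% and 33.3% and that for TRAV16D-DV11 between 0% and 26.7%. The order of all 3 genes was kept in 11 of the 12 tables. TRAJ58, at rank 2, was joined to TRAV16 in 29 distinct chains and to TRAV16N and TRAV16D-DV11 in 0 of 1192 and 0 of 465, with exact upper limits of 0.309% and 0.790%. TRAJ22, at rank 31, was joined in 125 TRAV16N chains (10.5%), 42 TRAV16D-DV11 chains (9.03%) and 28 TRAV16 chains (2.43%).

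The neighbours of each gene on the chromosome had similar ranks. The V genes next to TRAV16D-DV11 with cells in these data, 3 on each side, had median ranks of 30 to 34. Around TRAV16N, its upstream neighbour TRAV8N-2 stood at 31 and its downstream neighbour TRAV14N-3 at 30. Around TRAV16, the upstream TRAV8-2, annotated as a pseudogene, stood at 14 and the downstream TRAV14-3 and TRAV3-4 at 9 each. Some of the nearest genes had few chains, such as TRAV7-2 with 1 and TRAV13-3 with 5, and their ranks of 15 and 31 carry little weight.

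**Figure D4:**
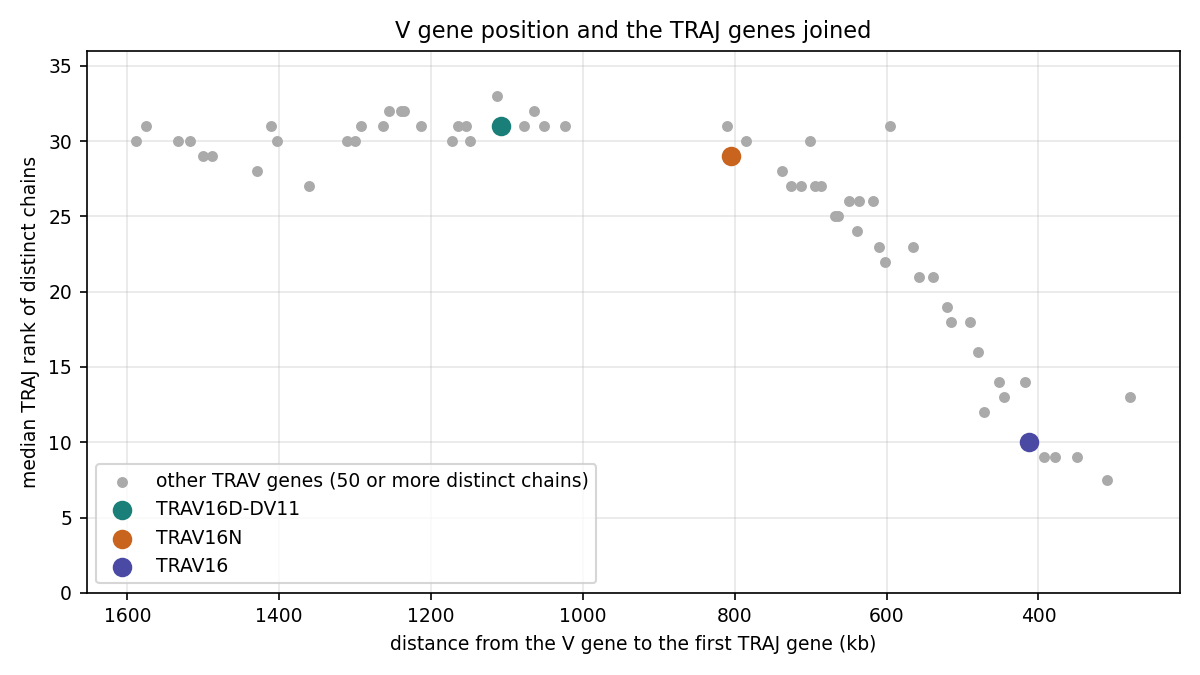
Median TRAJ rank of distinct chains (y axis) against the distance from the V gene to the first TRAJ gene (x axis, kb, running toward the J cluster) for each TRAV gene with 50 or more distinct chains. TRAV16D-DV11 and TRAV16N sit on the flat upstream stretch at ranks 31 and 29, and TRAV16 sits at rank 10 at the low end of the slope.

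Within the family as a whole, the 3 TRAJ genes with the highest median share over the tables were TRAJ22 (7.01%), TRAJ49 (4.70%) and TRAJ40 (4.59%). Among other TRA chains their medians were 8.52%, 3.47% and 3.02%. TRAJ49 came mostly with TRAV16, in 115 of 144 distinct family chains. TRB chains of family clonotypes used TRBV13-2 (median 11.6%), TRBV3 (8.38%) and TRBV13-1 (8.36%) most, against 12.02%, 6.63% and 7.75% among other clonotypes. The leading J genes of the beta chain were TRBJ2-7 (17.7%), TRBJ1-1 (12.3%) and TRBJ2-5 (11.96%), against 19.5%, 11.8% and 11.4%. For both V and J of the beta chain, the ranges over tables of family and other clonotypes overlapped for each of these genes.

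The germline end of the V gene showed in the CDR3. The V exon ends in tgtgctatgagagaggg, which encodes the first residues of the loop, Cys, Ala, Met, Arg and Glu. A CDR3 with that start was found in 72.2% (70.5 to 73.8) of distinct family chains, namely in 72.0% of TRAV16D-DV11, 71.0% of TRAV16N and 73.5% of TRAV16 chains, and in 0.100% (0.0772 to 0.128) of other TRA chains. The median CDR3 length was 15 residues over distinct nucleotide chains of annotated family cells, the same for the 3 genes. It was 14 over distinct amino acid chains of all other TRA cells, which is an unlike unit of counting. Between the V and the J segment a median of 2 bases was read for each of the genes, and 20.8% (19.2 to 22.6) of the 2307 distinct family nucleotide chains had none. In what follows, bases between V and J are in capitals.

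Several family chains recurred between animals. Of 1781 distinct family CDR3 amino acid sequences, 409 (23.0%) were found in 2 or more mice, against 28.5% of 34755 other TRA sequences. In 6 or more mice the shares were 0.618% and 1.59%. In all 7 mice 2 family sequences (0.112%) were found, against 204 others (0.587%), so the family had the lower share at each of these levels. The most common nucleotide sequence in annotated cells is shown for the 2 family sequences of all 7 mice. It is also shown for the 3 with the most cells among the 9 family amino acid sequences found in 6 mice, to let the few untemplated bases be seen. The number of mice on each line is that of the nucleotide sequence with the V call named.
TRAV16N and TRAJ22, 7 mice: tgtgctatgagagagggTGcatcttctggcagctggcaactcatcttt
TRAV16 and TRAJ45, 7 mice: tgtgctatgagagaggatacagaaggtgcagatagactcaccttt
TRAV16N and TRAJ22, 4 mice, longer V end: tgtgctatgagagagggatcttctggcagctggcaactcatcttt
TRAV16N and TRAJ22, 6 mice, longer J end: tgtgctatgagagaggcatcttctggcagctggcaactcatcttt
TRAV16N and TRAJ30, 6 mice: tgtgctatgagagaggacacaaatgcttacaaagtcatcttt

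The TRAV16 and TRAJ45 chain had 19 cells in 10 tables and 17 different TRB chains, and was called TRAV16 in 15 cells, TRAV16N in 3 and TRAV16D-DV11 in 1. Of the 3 amino acid sequences of 6 mice, the one with the longer J end had 28 cells and 22 TRB chains, the one with the longer V end 26 cells and 20 TRB chains over 4 nucleotide sequences, and the TRAJ30 chain 19 cells and 15 TRB chains. These chains recurred with many partners.

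The TRAV16N and TRAJ22 chain of all 7 mice differed from them in number. It had 312 cells in 13 tables, of which 277 were in the mouse-160A tumor. The other 35 cells lay in 12 tables. Of these, 7 shared their second-round and third-round barcodes and their sublibrary with a cell of the mouse-160A tumor that carried the same chain, so that they differed from it only in the first-round barcode, which names the sample. The other 28 did not. In 304 of 309 annotated cells the nucleotide sequence was the one above. Whether such cells were assigned to a wrong table was not tested.

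Repeated clonotypes, that is, the same TRA and TRB CDR3 amino acid pair in 2 or more cells of a table, were nearly confined to the tumors. In the thymus they held between 0% and 1.69% of paired family cells, with a median of 0.714%. In the spleens 0 of 165 and 0 of 60 paired family cells were repeated, with upper interval limits of 2.21% and 5.96%. Among tumors, mouse-164C had 16.4% (13.2 to 20.1), mouse-160C 27.5% (14.6 to 43.9), mouse-164B 28.1% (20.8 to 36.5), mouse-160B 35.4% (30.7 to 40.4) and mouse-160A 94.1% (90.4 to 96.7). All 5 tumors were above all 9 other tables, also when every table was thinned to 40 paired family cells, where tumors held 8.53% to 90.1% and the thymus at most 0.751%.

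Family cells were set beside the rest of each tumor after the rest was thinned. Thinning takes cells out of other clonotypes and leaves family clonotypes whole, so it lowers the other value alone. A family value above it therefore cannot be read as an excess of the family. Cells without a family chain, thinned to the same number of cells, held 65.7% in repeated clonotypes in mouse-160A and 9.16% in mouse-160B, both below the family's interval. In mouse-160C (41.8%), mouse-164B (32.0%) and also mouse-164C (18.1%), it was inside the family's interval.

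**Figure D5:**
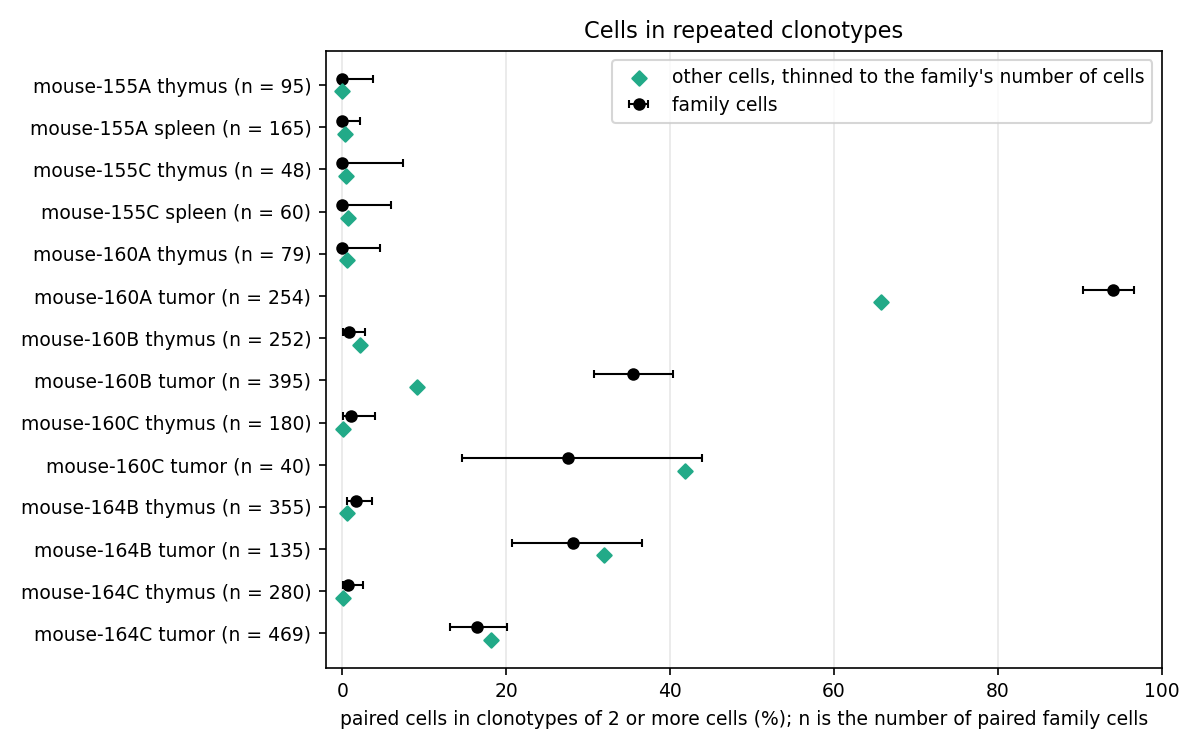
Paired family cells in clonotypes of 2 or more cells (x axis, %) in each table (y axis), with exact 95% binomial intervals (circles), and the value for cells without a family chain after thinning to the same number of cells (diamonds). Only tumors exceed 10%. In the mouse-160A and mouse-160B tumors the diamond is below the family's interval, but thinning lowers the diamonds alone and leaves family clonotypes whole.

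A large clonotype set the mouse-160A tumor apart. The TRAV16N and TRAJ22 chain shown above as found in all 7 mice was paired there with a TRB chain of TRBV13-2 and TRBJ2-1 in 225 of 254 paired family cells (88.6%). These were 12.4% (10.9 to 14.02) of all paired cells of that tumor. They were spread over all 8 sublibraries with 19 to 41 cells in each, and had a median of 3 TRA and 9 TRB transcripts. In that table TRAJ22 took 92.1% of family cells, and TRBV13-2 took 89.0% and TRBJ2-1 90.2% of the paired ones. Without cells of this TRA chain, an alternative chosen after seeing the data, the family share of the mouse-160A tumor was 1.03% (0.673 to 1.503), resting on 26 cells. The thymus share of this mouse was 3.01% (2.45 to 3.65). Only the largest family chain was taken out, while repeated clonotypes outside the family stayed in, so the 2 shares cannot be compared. The same pair was found in 1 cell outside that tumor, in mouse-155C thymus, with 1 transcript of each chain, and the other barcode parts of this cell matched a barcode of the mouse-160A tumor.

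Among primary chains, the leading family clonotypes of the other 4 tumors were smaller, and each used TRAV16D-DV11, the least used gene of the family. In mouse-160B it was joined to TRAJ30 and paired with TRBV2 in 32 cells, followed by a TRAV16 and TRAJ53 clonotype of 22 cells. In mouse-164C it was joined to TRAJ4 (21 cells), in mouse-164B to TRAJ12 (6 cells) and in mouse-160C to TRAJ26 (3 cells). With secondary chains counted too, a TRAV16 and TRAJ49 clonotype had 11 cells in mouse-160C. The V–J junctions of the 4 leading chains are shown to let the trimmed V end be compared with the germline end above.
mouse-160B tumor, TRAV16D-DV11 and TRAJ30: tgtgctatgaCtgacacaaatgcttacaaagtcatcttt
mouse-164C tumor, TRAV16D-DV11 and TRAJ4: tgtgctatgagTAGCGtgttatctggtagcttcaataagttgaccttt
mouse-164B tumor, TRAV16D-DV11 and TRAJ12: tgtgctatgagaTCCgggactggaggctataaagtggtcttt
mouse-160C tumor, TRAV16D-DV11 and TRAJ26: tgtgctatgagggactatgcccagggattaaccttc

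All 4 keep less of the germline V end than the chain of the mouse-160A tumor. Family clonotypes of 5 or more cells numbered 7 for TRAV16N (270 cells), 5 for TRAV16D-DV11 (78 cells) and 4 for TRAV16 (53 cells). Of the 270 TRAV16N cells, 225 were the leading clonotype of the mouse-160A tumor. The genes had 1192, 465 and 1154 distinct chains in the same order, and no count for clonotypes outside the family is set beside these. Among the thymus and spleen tables, only mouse-164B thymus had a family clonotype of 3 or more cells, a TRAV16N and TRAJ22 clonotype of 6 cells.

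Family clonotypes found in both the thymus and the second tissue of a mouse numbered 11 of 1281 thymus family clonotypes (0.859%, 0.429 to 1.53), against 159 of 27333 other thymus clonotypes (0.582%, 0.495 to 0.679). The intervals overlapped, in all mice together and within each mouse. Of these, mouse-164B had 4, mouse-160B had 3, mouse-160C had 2, and both mouse-155C and mouse-164C had 1, while mouse-155A and mouse-160A had 0. The 42 pairs of a thymus with the second tissue of another mouse shared 1 in all. None of the 11 was found in another animal, and in none did a thymus cell share the other barcode parts with a cell of the second tissue. With at least 2 transcripts required for each chain, only 1 shared clonotype was counted.

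The shared clonotype with the most cells was the TRAV16D-DV11 and TRAJ30 clonotype that led the family in the mouse-160B tumor, with 1 cell in the thymus and 32 in the tumor. A TRAV16N and TRAJ43 clonotype of mouse-164C, paired with TRBV3, had 1 thymus and 10 tumor cells. The TRAV16N and TRAJ22 clonotype of mouse-164B, paired with TRBV13-3, had 6 thymus and 4 tumor cells, and was the only one of the 11 with more than 2 cells in the thymus. Of the TRAV16N and TRAJ4 clonotypes, the one of mouse-164B had 1 and 4 cells, and the one of mouse-160B had 2 and 3. The remaining 6 had 1 to 3 cells in each tissue, and of these 4 used TRAV16 and 2 used TRAV16D-DV11. Shared clonotypes held 9.11% (6.47 to 12.4) of the paired family cells of the mouse-160B tumor and 8.89% (4.68 to 15.01) of those of the mouse-164B tumor. They held 7.5% in the mouse-160C tumor, 2.13% in the mouse-164C tumor, 1.67% in the mouse-155C spleen and 0% in the mouse-155A spleen and mouse-160A tumor. In the mouse-160B tumor 32 of the 36 shared cells were of 1 clonotype, so the interval treats cells of a clone as separate draws. No such share is given here for other clonotypes. In the thymus of mouse-160B and mouse-164B, shared family clonotypes held 1.59% (0.434 to 4.01) and 2.54% (1.17 to 4.76).

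A TRAV16 chain recurred in 3 tumors with nearly the same TRB partner. It was found by a search made after the values were seen, over 43 family CDR3 sequences with a clonotype of 3 or more cells in a mouse, counting primary and secondary chains. Of these, 2 had such clonotypes in 2 or more mice, and 1 in 3 or more. The last, of TRAV16 and TRAJ49, had TRB chains of 12 residues that differed only at residue 5. Counted as a primary or a secondary chain, it occurred with TRBV26 in 7 cells of the mouse-160A tumor, and with TRBV2 in 14 cells of the mouse-160B tumor and 11 cells of the mouse-160C tumor, each time with TRBJ2-7. These were 32 of the 38 cells that had this TRA chain and a TRB chain.

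The junctions of both chains are shown because the nucleotide sequences of the TRB chain differed between the 3 tumors. The TRA sequence of mouse-160A also differed from the others, while mouse-160B and mouse-160C had the same. Within each tumor 1 sequence of each chain was read.
TRA, mouse-160A tumor: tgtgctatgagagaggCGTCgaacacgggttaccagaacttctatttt
TRA, mouse-160B and mouse-160C tumors: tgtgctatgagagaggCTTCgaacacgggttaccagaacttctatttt
TRB, mouse-160A tumor: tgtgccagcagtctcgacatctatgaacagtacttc
TRB, mouse-160B tumor: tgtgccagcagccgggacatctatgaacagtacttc
TRB, mouse-160C tumor: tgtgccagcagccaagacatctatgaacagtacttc

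The TRB lines are in lower case throughout, with no bases marked. None of these cells matched a cell of another of the 3 tumors in the other barcode parts. The family chain was the secondary TRA chain in 3 of the 7 cells of mouse-160A, 2 of the 14 of mouse-160B and 10 of the 11 of mouse-160C. As a primary chain, the same TRB had a TRAV21-DV12 and TRAJ56 chain in 6 cells of mouse-160A, where the TRAV16 chain was primary in 4. It had a TRAV8-2 and TRAJ30 chain in 4 cells of mouse-160B against 12 for the TRAV16 chain, and a TRAV8-1 and TRAJ48 chain in 25 cells of mouse-160C against 1. TRAV8-2 is annotated as a pseudogene, and the same TRAV8-2 chain was also read in 1 of the mouse-160C cells. TRB chains of the pattern, with any residue at position 5, were found in 40 barcodes of the thymus and spleen tables, of which 2 had a TRA chain and neither had the TRAV16 chain. The TRAV16 chain itself was found in 4 thymus or spleen tables, with 1 cell each. Only the cell of mouse-164B thymus had a TRB chain, which was not of the pattern, so absence elsewhere rests on that cell alone.

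A TRB chain of TRBV29 and TRBJ2-2 in the mouse-160B tumor was paired with 2 different family chains, and was chosen after its values were seen. Of its 167 paired cells, 136 had a TRAV5-4 and TRAJ42 chain, 14 had a TRAV16 and TRAJ48 chain and 6 had a TRAV16N and TRAJ48 chain.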

How the data were processed

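TCR chains of CD8+ T cells were profiled with the Parse Evercode TCR platform, which labels RNA inside fixed cells by rounds of well barcodes and splits cells over 8 sublibraries, the 8 labelled samples. The authors assembled chains and called V, J, CDR3 and multiplets with the Parse Biosciences TCR pipeline (version not given in the sources used here). Deposited tables give transcript counts per chain and barcode and cell counts per clonotype. V identity is a percent in the deposited annotation tables. Animal and tissue were read from the table's name, as no label gives them.

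From these, shares were computed with exact (Clopper-Pearson) 95% intervals, which cover counting error only, and 0 counts with the upper limit. Barcodes marked as multiplets (24019 of 253531) were left out. TRA barcodes per table ranged from 2523 to 20511. Genes were placed by the GRCm39 annotation, where all 82 V gene names called were found. No p-value was computed, since no groups are labelled, each table exists in 1 copy and cells are not replicates. TRG, TRD and immunoglobulin chains numbered 0. Thinning to fewer cells was computed exactly, and the calculation was tested on simulated data.

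The genes and sequences named are the family genes, the leading family clonotype of a table with 3 or more cells, clonotypes shared between tissues, the 5 family CDR3 sequences found in the most mice (ties by cells), the 3 leading TRAJ, TRBV and TRBJ genes, the 3 TRAV genes most like the family and the nearest V genes. The members and lists were chosen with earlier results of these data known, and the TRAV16 and TRAJ49 chain and the TRB of mouse-160B after their values were seen. Alternatives were multiplets kept, 2 transcripts, paired barcodes, distinct chains, transcript weights, secondary chains, recurrent pairs, nucleotide clonotypes and each sublibrary left out. Python 3.11.15, pandas 2.3.3, NumPy 2.4.6, SciPy 1.17.1 and matplotlib 3.10.9 were used.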

Additional observations from a re-analysis of the deposited data

Results flagged for a closer look

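Among 11 quantities checked for a single outlying value over the thymus tables, the tumor tables or the sublibraries, 3 were found. The Dixon limit was used, which sets the gap to the nearest value against the range. Chance passes it in about 1 in 20 for a quantity on its own. The gene shares of a table depend on each other, so that rate does not hold for the 11 together. The family share of the mouse-160A tumor fell just short of the limit, at 0.7096 against 0.71. The TRAV16N share of family cells in the mouse-160A tumor (95.4%) was far above the other 4 tumors, and the TRAV16D-DV11 share there (0.330%) far below them. Both shares belong to the same 303 cells, of which 277 carry 1 TRA chain.

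The family share was 2.44% (2.19 to 2.71) of TRA barcodes in sublibrary 1, against 3.40% to 3.94% in the other 7 sublibraries. It was lower in sublibrary 1 than in the others in 14 of 14 tables. All 3 genes were lower there, with 0.929% against 1.20% to 1.55% for TRAV16, 1.08% against 1.51% to 1.90% for TRAV16N and 0.429% against 0.497% to 0.683% for TRAV16D-DV11.

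Secondary TRA chains, which the shares of the report do not use, held 903 family calls among 16613 chains, or 5.44% (5.10 to 5.79), against 3.47% (3.36 to 3.58) of primary chains. In 30 of the 903 the primary chain was also of the family. A secondary TRA chain was found in 8.16% (7.30 to 9.08) of family cells and in 15.7% (15.4 to 15.9) of other TRA cells, a difference not tested over animals.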

How the results depend on the processing

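Each of 7 summary values was recomputed under the alternatives and set against a limit. For a share this was the exact interval of the table that gave it, and for a median share that of the median table. For a count it was 1.5 times the reported count, and for the TRAJ rank difference the range over thymus tables (-6 to -3). Within these limits 97 recomputed values stayed, and 16 did not. For the thymus median of the family share (3.56%), these were 2.37% with at least 2 transcripts, 4.38% among barcodes with both chains, 4.57% over distinct chains and 2.28% weighted by transcripts. For the mouse-160A tumor (10.8%), they were 12.1%, 14.02%, 2.26% and 8.04% in the same order. Without pairs found in more than 1 animal the value was 3.88%. This setting dropped the leading clonotype because of 1 cell of mouse-155C thymus with the same pair. That cell had 1 transcript of each chain, and its other barcode parts matched a barcode of the mouse-160A tumor. The same setting also gave 48.3% of the tumor's family cells in repeated clonotypes, against 94.1%. With the leading TRA chain left out there, an alternative chosen after seeing the data, the share was 1.03% and repeated clonotypes held 50% of family cells. Mice with a higher share in the second tissue numbered 2 with at least 2 transcripts (mouse-160A and mouse-160B), against 4. Over distinct chains they also numbered 2, but these were mouse-155A and mouse-155C. Shared clonotypes numbered 1 with at least 2 transcripts, against 11, and the median TRAJ rank of the family minus that of other chains was -2.5, against -3. The cause of the other moves was not tested. Leaving out any 1 sublibrary moved none of the 7 past these limits, with thymus medians of 3.43% to 3.71%. Of the shares of single tables, 178 recomputed values stayed within the reported interval and 60 did not.

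No paired analysis was possible because no labelled groups share replicate numbers: the labelled samples are sublibraries. The thymus and second tissue of a mouse, known from the table names alone, were set side by side without a test. Depth limits the smaller tables: a count of 0 of 60 paired family cells allows up to 5.96%, and nucleotide clonotypes cover only part of 3 tables.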
